A study of Mus musculus with 24 samples.

Results

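The genes described here are 10 genes that mark T cells and natural killer (NK) cells, Cd3d, Cd3e, Cd3g, Cd2, Cd8a, Nkg7, Gzma, Gzmb, Klrd1 and Ccl5, measured in mouse liver. Every probe that the array's own annotation names for one of them was taken, which gave 14 probes for the 10 genes, and 9 of the 10 genes could be tested among 21196 gene names. The 24 single-colour arrays hold liver RNA of C57BL/6J mice aged 68 weeks, in 4 labelled groups of 6: males on a pesticide-enriched diet, females on that diet, males on the control diet and females on the control diet, each fed for 52 weeks. The labels do not name the pesticides. No mouse numbers are given, so p-values measure the spread between liver samples. The labels do not say whether each came from its own mouse.

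The labelled groups carry a conflict that touches every comparison below. Xist, the RNA made from the inactive X chromosome of females, was well above background on 12 of 12 pesticide-labelled arrays and on 0 of 12 control-labelled arrays, whatever the labelled sex. Eif2s3y, a gene of the Y chromosome, was well above background on 0 of 12 pesticide-labelled arrays and on 12 of 12 control-labelled arrays. Ddx3y, another Y gene, split the arrays the same way. Labelled diet and sex-chromosome transcripts therefore cannot be told apart in these arrays, and each group is named below by its label only. Replicate 4 of the labelled female control group, called labelled female control 4 below, stands apart from the other arrays in these genes, so results are given with and without it. All 10 hepatocyte markers were above background on all arrays.

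T cells recognise antigen through a receptor whose signal is passed into the cell by the Cd3 chains, and Cd2 and Cd8a help the cell to hold on to its target. NK cells do without that receptor and read their targets through receptors such as Klrd1. Both kinds of cell kill by releasing granules that hold granzymes such as Gzma and Gzmb, and both make the chemokine Ccl5, which draws in more leukocytes. The liver sinusoids are known for a large resident population of NK cells and T cells. In whole liver RNA, fewer cells of a type and less RNA per cell cannot be told apart.

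The sequences of 3 probes that read coding sequence are shown first, because they tell what the array measured: one signalling chain, one coreceptor that stayed too dim to test, and one NK receptor. Positions are on the mouse build mm9, as the scanner files give them. The Cd3d probe lies on chr9:44794171-44794402, plus strand, and its 60 bases are spread over 232 bases of the genome, so it crosses an exon junction. Its capitals mark the 45 bases that code for the paired tyrosine motif through which Cd3d signals. The Cd8a probe lies on chr6:71323885-71323944 and the Klrd1 probe on chr6:129548391-129548450, both on the plus strand, and both are shown without capitals.
Cd3d A_51_P285206: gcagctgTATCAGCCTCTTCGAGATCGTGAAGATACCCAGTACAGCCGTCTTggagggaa
Cd8a A_52_P150547: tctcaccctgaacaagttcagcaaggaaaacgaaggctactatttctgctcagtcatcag
Klrd1 A_51_P280947: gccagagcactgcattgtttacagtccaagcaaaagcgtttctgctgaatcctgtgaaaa

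Promoter sequence was available for 7 of the 10 genes in the RefSeq table for GRCm38.p6. Cd3d and Cd3g are shown because they are transcribed away from each other from starts 1355 bases apart and their levels moved together across arrays, and Gzma and Nkg7 are shown as granule genes. Each sequence is the 250 bases before the gene's start, 5′ to 3′ on the gene's strand. Capitals mark GGAA, the core read by Ets factors, and TGTGGT, the core read by Runx factors, searched on both strands, so that TTCC and ACCACA are marked as well. The windows are chr9:44981536-44981785 for Cd3d on the plus strand, chr9:44980432-44980681 for Cd3g on the minus strand, chr13:113100982-113101231 for Gzma on the minus strand and chr7:43436888-43437137 for Nkg7 on the plus strand.
Cd3d: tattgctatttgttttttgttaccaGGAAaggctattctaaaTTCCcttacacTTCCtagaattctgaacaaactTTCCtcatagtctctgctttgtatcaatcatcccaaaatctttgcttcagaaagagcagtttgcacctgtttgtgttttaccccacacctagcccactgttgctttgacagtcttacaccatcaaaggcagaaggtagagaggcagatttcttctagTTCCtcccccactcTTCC
Cd3g: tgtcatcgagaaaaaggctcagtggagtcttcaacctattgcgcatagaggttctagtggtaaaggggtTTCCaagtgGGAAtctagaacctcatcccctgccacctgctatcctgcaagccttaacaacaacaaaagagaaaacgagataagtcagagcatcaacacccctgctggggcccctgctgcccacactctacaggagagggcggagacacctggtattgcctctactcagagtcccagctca
Gzma: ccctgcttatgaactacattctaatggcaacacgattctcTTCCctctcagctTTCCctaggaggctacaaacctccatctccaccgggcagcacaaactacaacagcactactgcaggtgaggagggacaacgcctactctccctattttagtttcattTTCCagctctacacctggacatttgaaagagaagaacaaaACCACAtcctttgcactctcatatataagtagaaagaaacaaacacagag
Nkg7: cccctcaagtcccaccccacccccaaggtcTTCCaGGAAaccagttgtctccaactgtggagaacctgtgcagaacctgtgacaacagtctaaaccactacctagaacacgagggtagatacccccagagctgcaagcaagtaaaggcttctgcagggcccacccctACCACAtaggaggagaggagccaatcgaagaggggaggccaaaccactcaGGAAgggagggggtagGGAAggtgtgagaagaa

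GGAA was present in 6 of the 7 promoters, and in 93.4% of 32851 promoter windows of the same length. TGTGGT was present in 3 of the 7, Gzma, Gzmb and Nkg7, and in 14.0% of all windows. The Cd3d window held 6 matches to GGAA and 0 to TGTGGT, the Gzma window held 3 and 1, and the Nkg7 window held 4 and 1. A match describes the letters of the window and is not a shown binding site.

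Of the 14 probes, 12 passed the filter for testing, which asked for a signal that the scanner marked as well above background in 4 or more of 6 arrays in any group. Each of the 9 genes tested reached that number in all 4 groups, so none entered through 1 group alone. The lowest detection among them was that of Cd3g, on 4 of 6 labelled female control arrays, and Gzmb was marked on 5 of 6 arrays in each control group. Both Cd8a probes failed the filter. Levels below are log2 fluorescence intensities after quantile normalization, a scale on which a difference of 1 is a doubling. A gene with several probes is represented by its brightest tested probe.

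**Figure D1:**
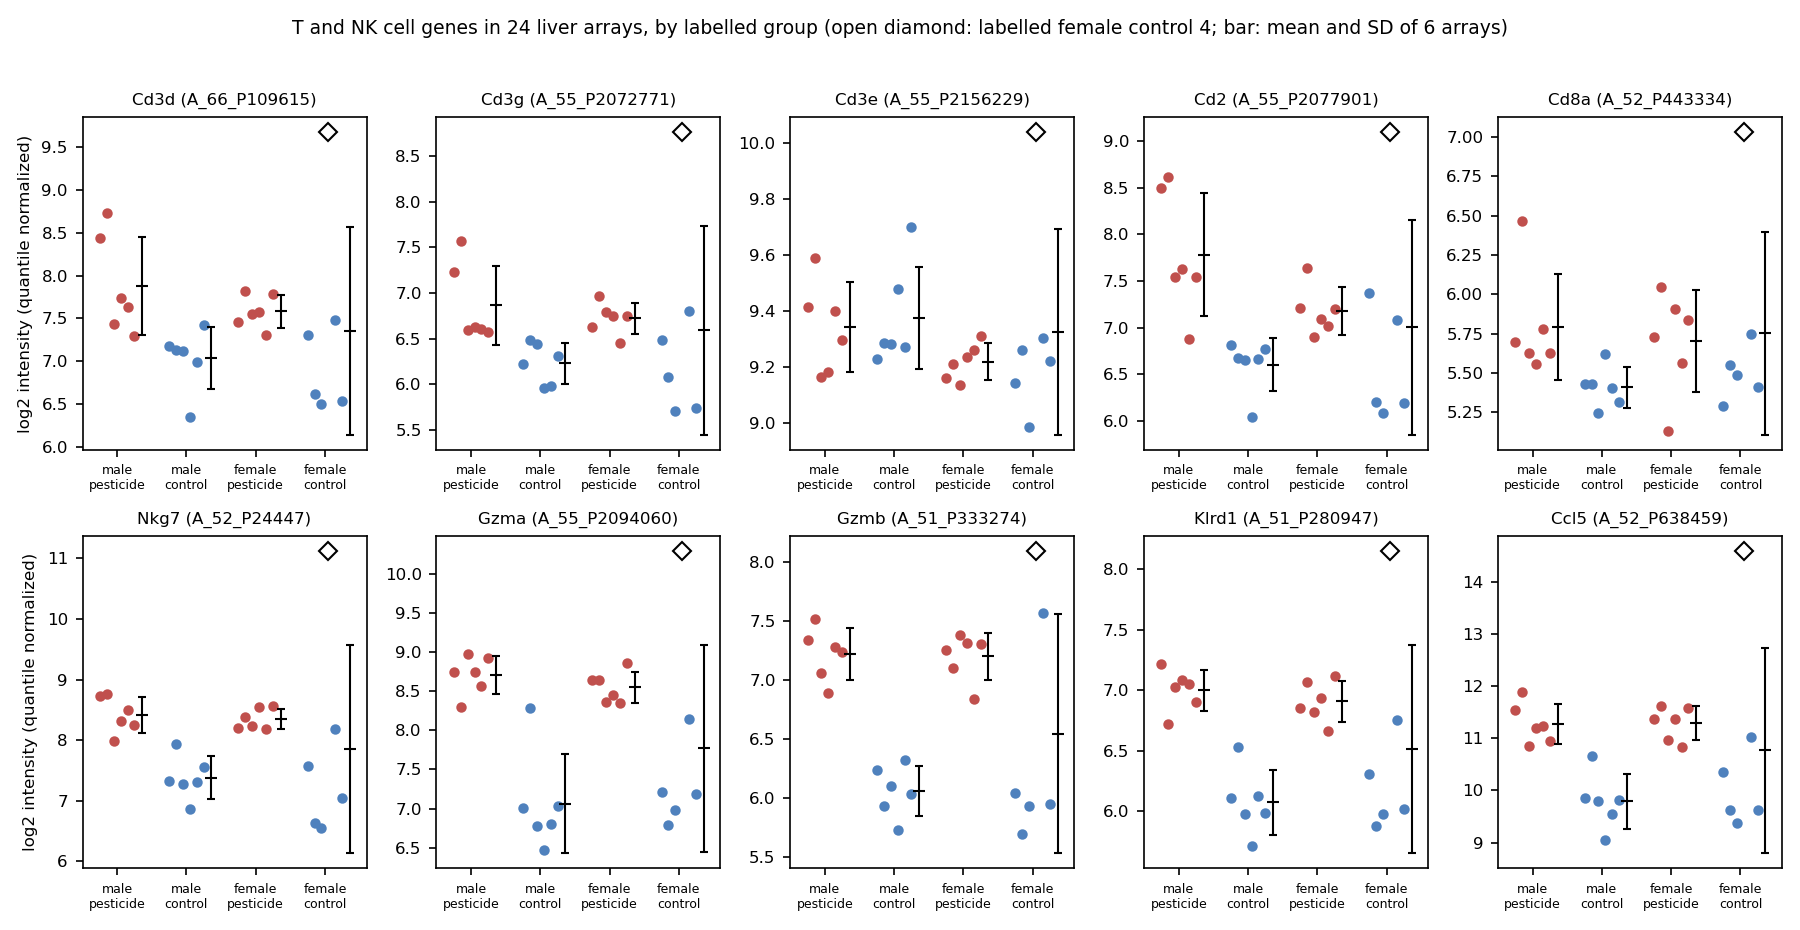
Log2 intensity (vertical axis) of the 10 genes on 24 arrays by labelled group, 1 point per array, with the mean and SD of 6 arrays beside each group. The open diamond is labelled female control 4, which was the highest of all 24 arrays for each gene shown, at 14.60 for Ccl5 and 11.12 for Nkg7.

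The Cd3 chains carry the signal of the T cell receptor, and 2 of the 3 moved in the same way. Cd3d ranged between 7.30 and 8.73 in labelled male pesticide livers (median 7.69), against 6.35 to 7.42 in labelled male control livers (median 7.13). In labelled females it ranged between 7.30 and 7.82 in pesticide livers (median 7.56), against 6.50 to 7.48 in 5 control livers, with 9.67 in labelled female control 4. The groups overlapped by a small margin in males, where the difference was 0.85 ± 0.37 (SE) on the log2 scale (limma adjusted p = 0.108). Without labelled female control 4 the same male difference had an SE of 0.23 and an adjusted p of 0.0084, because all groups share 1 estimate of the spread. In labelled females the difference was 0.23 ± 0.37 with all arrays (adjusted p = 0.721) and 0.69 ± 0.24 without that array (adjusted p = 0.0404).

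Cd3g, the partner encoded next to Cd3d, lay between 6.57 and 7.58 in labelled male pesticide livers, all above the 5.95 to 6.48 of labelled male control livers. Labelled female pesticide livers had 6.45 to 6.97, against 5.70 to 6.80 in 5 control livers and 8.76 in labelled female control 4. With all 24 arrays its differences of 0.64 ± 0.33 in males and 0.13 ± 0.33 in females did not pass (limma adjusted p = 0.182 and 0.829). Without that array they were 0.64 ± 0.18 and 0.56 ± 0.19, and both passed (adjusted p = 0.0149 and 0.0419).

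Cd3e, the third chain, did not follow the other two. Its levels were 9.16 to 9.59 in labelled male pesticide livers against 9.23 to 9.70 in male control livers, and 9.13 to 9.31 in female pesticide livers against 8.98 to 9.30 in 5 female control livers. The differences were -0.03 ± 0.12 in males and -0.11 ± 0.12 in females (limma adjusted p = 0.887 and 0.599), and a second Cd3e probe gave -0.04 and -0.20. Without labelled female control 4 the 95% interval of the mean difference was -0.12 to 0.13, which is narrower than the interval of any other tested member. Labelled female control 4 was still the highest of the 24 arrays on both Cd3e probes, at 10.04 on the brighter one.

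Cd2, an adhesion receptor that in mice binds Cd48, showed its change in labelled males. It ranged between 6.88 and 8.62 in labelled male pesticide livers (median 7.59), all above the 6.04 to 6.81 of male control livers. Labelled male pesticide arrays 1 and 2, on the same slide, were the 2 highest at 8.49 and 8.62. The difference was 1.18 ± 0.37 (limma adjusted p = 0.023), and the second Cd2 probe, which overlaps the first on the genome, gave 1.17 ± 0.34. Among labelled females Cd2 had 6.90 to 7.64 in pesticide livers, against 6.09 to 7.37 in 5 control livers and 9.09 in labelled female control 4. The female difference of 0.17 ± 0.37 did not pass (adjusted p = 0.792), nor did that of 0.59 ± 0.27 without that array (adjusted p = 0.123).

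Cd8a, the coreceptor chain of cytotoxic T cells, was at the edge of detection. Probe A_52_P443334 was well above background on 3 of 6 labelled male pesticide arrays, 3 of 6 female pesticide arrays, 0 of 6 male control arrays and 1 of 6 female control arrays. Its measured means were 5.79 in labelled male pesticide livers and 5.41 in male control livers. The pesticide mean over all 6 arrays was also set against the lowest signal counted as well above background, or the probe's own where higher. By that measure it was 1.23-fold higher, which is no firm bound. Only 3 of those 6 arrays were above background, and array 2, at 6.47, was the highest. With no filter on dim probes the male difference was 0.385 ± 0.22 (limma adjusted p = 0.33). In females the means were 5.70 in pesticide livers and 5.75 in control livers. Labelled female control 4 was the only female control array with this probe above background, and without it the control mean was 5.50. The second probe, the one printed above, was well above background on 1 array only, in the labelled female control group. The 2 probes read 7.03 and 5.90 on labelled female control 4, the highest of 24 arrays on each.

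Gzma, a granule protease, had the largest difference of the members in labelled males. Its levels were 8.30 to 8.97 in male pesticide livers (median 8.74) and 6.47 to 8.29 in male control livers (median 6.90). The groups did not overlap, and only labelled male control 2 came near the pesticide arrays. The difference was 1.64 ± 0.40 (limma adjusted p = 0.00456), a 3.13-fold higher level. Labelled female pesticide livers had 8.35 to 8.86, against 6.80 to 8.15 in 5 control livers and 10.29 in labelled female control 4. The female difference of 0.78 ± 0.40 did not pass with all arrays (adjusted p = 0.181), whereas without labelled female control 4 the groups did not overlap and the difference was 1.29 ± 0.24 (adjusted p = 0.000595).

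Gzmb, the granzyme best known for triggering apoptosis in target cells, had 6.89 to 7.52 in labelled male pesticide livers and 5.73 to 6.33 in male control livers. It was higher by 1.16 ± 0.29 with no overlap (limma adjusted p = 0.00546). Labelled female pesticide livers had 6.84 to 7.38. Among labelled female controls, 4 arrays lay between 5.70 and 6.04, while array 5 read 7.56 and array 4 read 8.09, so that 2 of the 6 control arrays exceeded every female pesticide array. The female difference was 0.65 ± 0.29 with all arrays (adjusted p = 0.118) and 0.96 ± 0.22 without labelled female control 4 (adjusted p = 0.00324).

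Nkg7, a membrane protein of cytotoxic granules, ranged between 7.98 and 8.76 in labelled male pesticide livers, all above the 6.86 to 7.93 of male control livers. Its male difference of 1.04 ± 0.47 did not pass with all 24 arrays (limma adjusted p = 0.121). The SE fell to 0.22 without labelled female control 4, and the adjusted p was then 0.00117. Labelled female pesticide livers had 8.18 to 8.56, against 6.54 to 8.19 in 5 control livers and 11.12 in labelled female control 4. The female difference was 0.50 ± 0.47 with all arrays (adjusted p = 0.506) and 1.15 ± 0.23 without that array (adjusted p = 0.000896).

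Klrd1, the CD94 chain of NK receptors, had 6.72 to 7.21 in labelled male pesticide livers and 5.71 to 6.54 in male control livers, with no overlap. It was higher by 0.93 ± 0.25 (limma adjusted p = 0.00981). In labelled females it had 6.66 to 7.12 in pesticide livers, against 5.88 to 6.75 in 5 control livers and 8.15 in labelled female control 4. The female difference was 0.39 ± 0.25 with all arrays (adjusted p = 0.292) and 0.72 ± 0.14 without that array (adjusted p = 0.000884).

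Ccl5, the chemokine of the list, had 10.86 to 11.89 in labelled male pesticide livers and 9.04 to 10.67 in male control livers. The male groups did not overlap, yet the difference of 1.49 ± 0.56 missed the threshold with all arrays (limma adjusted p = 0.0577). Labelled female pesticide livers had 10.84 to 11.62, against 9.37 to 11.03 in 5 control livers and 14.60 in labelled female control 4, the widest gap of any member. The female difference was 0.53 ± 0.56 with all arrays (adjusted p = 0.558). Leaving that array out gave differences of 1.49 ± 0.26 in males and 1.29 ± 0.27 in females (adjusted p = 0.000192 and 0.00154).

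**Figure D2:**
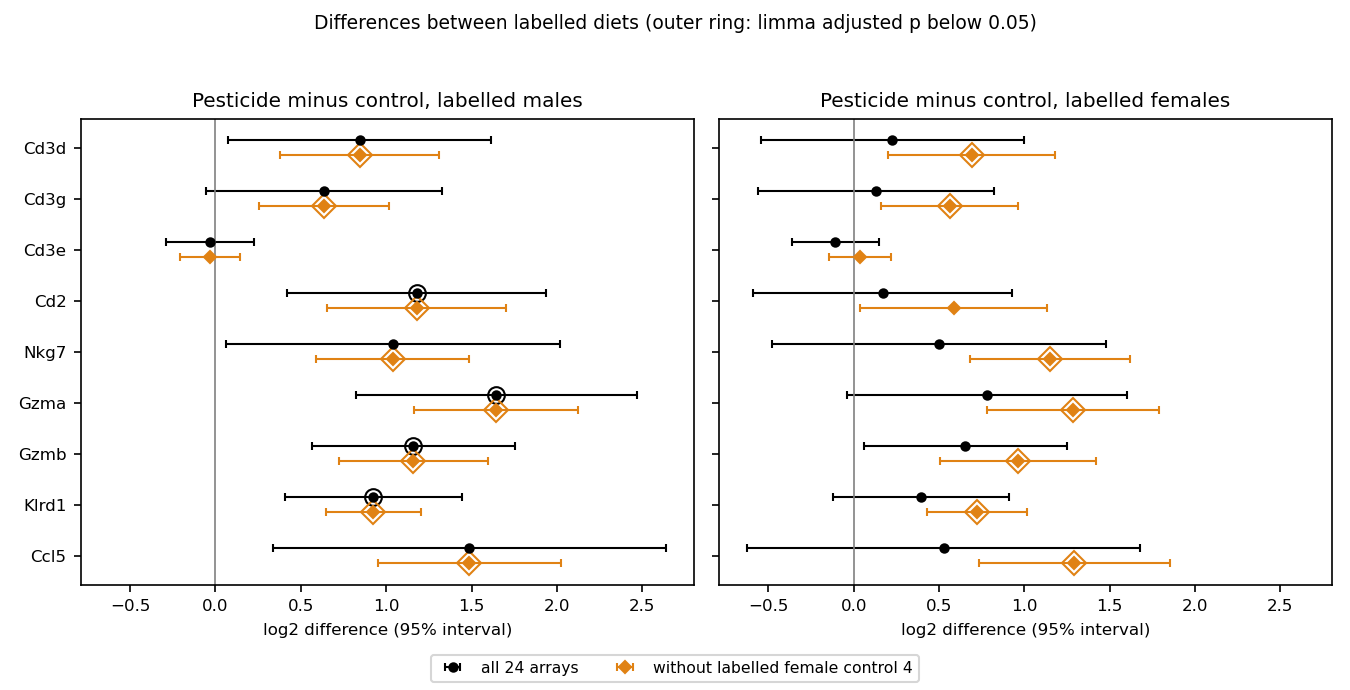
Difference in log2 intensity, labelled pesticide minus labelled control, with 95% intervals for the 9 tested genes in labelled males (left) and labelled females (right). Black circles use all 24 arrays and orange diamonds leave out labelled female control 4, an outer ring marks an adjusted p below 0.05, and Cd3e lies near 0 in each panel.

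Counted over the members, 4 of 9 were called higher in labelled male pesticide livers, Cd2, Gzma, Gzmb and Klrd1, where 13.3% of all gene names tested were called higher. The members' median difference was 1.04, against -0.02 over all genes. In 7 of 9 every male pesticide array exceeded every male control array, where 6.4% of all genes did so. In labelled females 0 of 9 were called by limma with all arrays, where 9.83% of all genes were called higher. There 1 of 9, Gzmb, had an unadjusted p below 0.05, as did 7026 of the 21196 gene names. Weighting the arrays by their quality in limma called 2 of 9 in females, and the share of all genes called under that fit is not given. Averaged over both labelled sexes, 5 of 9 were called higher, the 4 above and Ccl5, where 19.5% of all genes were.

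Leaving out labelled female control 4 changed these counts more than any other single array. Then 8 of 9 were called higher in labelled males, all but Cd3e, where 14.3% of all genes were called higher. In labelled females 7 of 9 were called higher, all but Cd3e and Cd2, where 11.2% of all genes were, and for 1 of 9, Gzma, the groups did not overlap, where 7.06% of all genes did not. For the mean of both, 8 of 9 were called higher, where 19.9% of all genes were. The members' median difference in females was 0.39 with that array and 0.72 without it.

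The difference between the labelled sexes in the pesticide difference was tested directly. For 0 of 9 members did limma call it with all arrays, and 0% of all genes were called. An unadjusted p below 0.05 was seen for 0 of 9 members and for 853 of the 21196 gene names. The estimates ran from -0.07 for Cd3e to -1.01 for Cd2, female minus male, and the members' median was -0.54 with all arrays and -0.19 without labelled female control 4. Labelled females also did not differ detectably from labelled males within a diet. With all 24 arrays, 0 of 9 were called among pesticide livers and 0 of 9 among control livers, as were 0% of all genes in each. No member had an unadjusted p below 0.05, while 870 of all genes did among pesticide livers and 1257 among control livers. With labelled female control 4 left out, 0 of 9 were called in either diet. Of all genes, 1 was called among pesticide livers and 0 among control livers. Then 1 member in each had an unadjusted p below 0.05, Cd2 among pesticide livers (-0.61 ± 0.25) and Cd3e among control livers (-0.19 ± 0.09). The number over all genes with such a p is not given for that setting. The interval for Ccl5 among control livers with all arrays was -0.17 to 2.13, so a sizeable difference is not excluded by these arrays.

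Each slide carried 2 arrays of each group, and in labelled males most members were higher in pesticide livers on every slide. In labelled males 9 of 9 members were higher in pesticide livers on slide 1, 8 of 9 on slide 2 and 8 of 9 on slide 3, with medians of 1.11, 1.08 and 0.92. In labelled females 8 of 9 were higher on slide 1 and 9 of 9 on slide 3, with medians of 0.86 and 0.50. On slide 2, which carried labelled female control 4, 1 of 9 was higher and the median was -0.45. Gzma differed by 0.87, 2.23 and 1.83 in males on slides 1, 2 and 3, and by 1.64, -0.23 and 0.94 in females. The size varied between slides in males for Cd2 (1.81, 1.24 and 0.49) and Cd3d (1.42, 0.86 and 0.26), which were largest on slide 1.

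Labelled female control 4 was the highest of all 24 arrays on 14 of 14 member probes, where it was the highest for 5.43% of all genes tested. Against the mean of the other 5 labelled female control arrays it was 24.2-fold higher for Ccl5, 15.2-fold for Nkg7, 8.16-fold for Gzma, 6.89-fold for Cd3d, 6.08-fold for Cd3g and 5.67-fold for Cd2. The remaining tested members were 3.89-fold higher for Klrd1, 3.61-fold for Gzmb and 1.81-fold for Cd3e. These are values of 1 array and carry no test. Labelled female control 5 was the second highest of its group for 8 of 9 members, and at the other end labelled male control 4 was the lowest of its group for 8 of 9.

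Other genes of the same cells were followed in lists named for their role. Counts in every list below stand beside 13.3% of all genes called higher in labelled males and 9.83% in labelled females. Without labelled female control 4 these shares were 14.3% and 11.2%. The filter asked for detection in any group, so a list gene could enter through only the group where it was high. Detection by group is not given for the lists. In the T cell receptor and signalling list, 4 of 13 tested genes rose in labelled male pesticide livers and 0 of 13 in female ones, and without labelled female control 4 the counts were 9 and 7. Averaged over both labelled sexes, Prkcq, a kinase downstream of the receptor, rose by 0.50 ± 0.10 and Thy1, a T cell surface protein, by 0.78 ± 0.23 (limma adjusted p = 0.000326 and 0.00885). Skap1, an adaptor that links the receptor to adhesion, rose by 0.53 ± 0.17 (adjusted p = 0.0164). Fyb, an adaptor that myeloid cells also make, rose by 0.85 ± 0.22 (adjusted p = 0.00402). In that mean 6 of the 13 rose, 0 fell and 7 did not pass. Among those not passing were Cd247, at -0.07 ± 0.18, and Zap70, at 0.01 ± 0.13 (limma adjusted p = 0.791 and 0.972). Without labelled female control 4 these 2 estimates were -0.01 and 0.07. For 7 of the 13, labelled female control 4 was the highest of 24 arrays.

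In the list of T cell subsets, 5 of 13 rose and 1 fell in labelled males, 2 rose and 1 fell in labelled females, and without labelled female control 4 the counts that rose were 7 and 6. Ccr7, the homing receptor of naive T cells, rose by 0.81 ± 0.17 in the mean of both (limma adjusted p = 0.000775). Among all genes 10.5% fell in labelled males, 9.62% in labelled females and 18.3% in the mean of both. With all arrays, the female counts of 2 and 1 of 13 lie near the shares of all genes, 9.83% higher and 9.62% lower. Lag3, an inhibitory receptor of activated T cells, fell by 0.52 on the log2 scale, in the opposite direction to the members (adjusted p = 0.000881). Tox, a transcription factor of T cell development, rose by 1.40 ± 0.16 (adjusted p = 4.09e-07), and labelled female control 4 ranked 19 of 24 for it, so it did not follow the members on that array.

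Of 20 listed NK receptors and transcription factors, 18 were on the array and only 9 passed the filter. Of these 9 tested genes, 7 rose in labelled males and 3 in labelled females. Without labelled female control 4 the counts were 7 and 6. The chemokine Xcl1 rose by 0.67 ± 0.09 and the NK receptor Klrb1c by 0.44 ± 0.07 in the mean of both (limma adjusted p = 3.26e-06 and 6.56e-05). Klra8, a receptor of the Ly49 family, rose by 0.45 ± 0.10, and Tyrobp, an adaptor that macrophages also make, by 1.34 ± 0.23. Klra8 and Klrb1c were dim, at 4.941 to 5.661 and 5.292 to 5.774 on the other 5 labelled female controls. Labelled female control 4 was the highest array for 2 of the 9 and ranked 10 of 24 for Xcl1 and 14 for Klrb1c.

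Among other cytotoxic effectors, 4 of 9 rose and 1 fell in labelled males, and 2 rose and 1 fell in labelled females. Without labelled female control 4, 4 and 3 rose. Ctsw, a protease of cytotoxic lymphocytes, rose by 0.44 ± 0.13 in the mean of both, and Srgn, the granule proteoglycan that myeloid cells also make, by 0.66 ± 0.12 (limma adjusted p = 0.00817 and 0.000107). Rab27a, which serves granule release, rose by 0.30 ± 0.05, whereas Unc13d, which primes granules for release, fell by 0.40 on the log2 scale (adjusted p = 0.000181 and 4.01e-05). For 7 of the 9, labelled female control 4 was the highest array.

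The list of Ccl5 receptors and lymphocyte-recruiting chemokines held 5 of 9 that rose in labelled males and 0 of 9 in labelled females, and 7 and 5 without labelled female control 4. Cxcr3, a receptor of activated T cells and NK cells, rose by 0.87 ± 0.17 in the mean of both (limma adjusted p = 0.000356). Cxcl9, an interferon-induced ligand of Cxcr3, rose by 0.93 ± 0.30 (adjusted p = 0.0179). It read 12.89 in labelled female control 4, against 8.999 to 9.934 in the other 5 labelled female controls. Of the Cd2 family, 3 of 5 rose in labelled males and 2 of 5 in labelled females, 5 and 4 without that array, and Cd48 rose by 0.86 ± 0.18 in the mean of both (adjusted p = 0.00063).

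**Figure D3:**
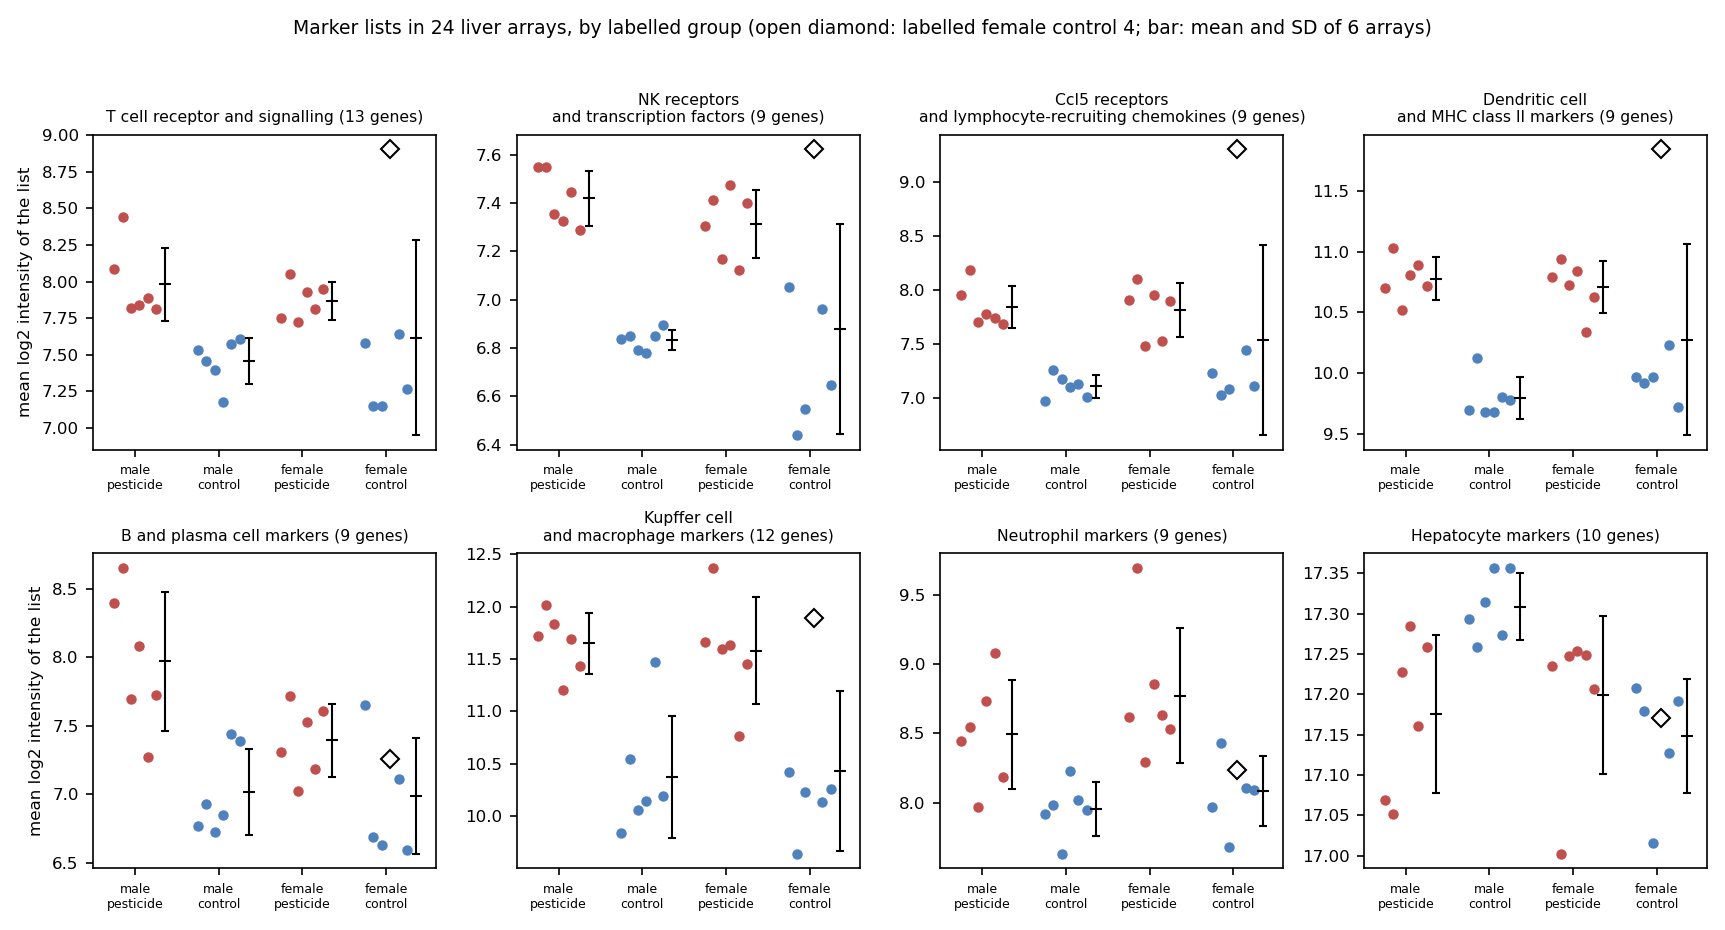
Mean log2 intensity of the tested genes of 8 marker lists (vertical axis) on 24 arrays by labelled group, with the mean and SD of 6 arrays. Labelled female control 4, the open diamond, was the highest array in the 4 lists of the upper row and ranked 14 of 24 for B cell markers and 18 of 24 for hepatocyte markers.

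Markers of other cell types moved with the labelled diet as well, and their part in the members' differences was not tested. In labelled males 11 of 12 Kupffer cell and macrophage markers, 9 of 10 sinusoidal endothelial markers, 6 of 9 dendritic cell and MHC class II markers, 5 of 9 B and plasma cell markers and 3 of 9 neutrophil markers rose. The Kupffer list averaged 11.20 to 12.01 on labelled male pesticide arrays and 9.84 to 11.47 on male control arrays. The B cell list averaged 7.27 to 8.65 on male pesticide arrays and 6.72 to 7.44 on male control arrays. None of 10 hepatocyte markers was called in males, with list means of 17.05 to 17.29 on pesticide arrays and 17.26 to 17.36 on control arrays. In labelled females 11 of 12 Kupffer, 8 of 10 endothelial, 4 of 9 neutrophil, 0 of 9 MHC class II and 0 of 9 B cell markers rose with all arrays, and 1 of 10 hepatocyte markers did. With labelled female control 4 left out, the female counts were 11, 9, 4, 7 and 1, so that the MHC class II list changed with that array as the members did, and its median difference was 1.05 without that array and 0.55 with it.

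On labelled female control 4, 8 lists besides the members lay above the range of the other 5 labelled female controls. The list mean there exceeded the mean of those 5 by 2.13 for the chemokines and their receptors, 1.88 for MHC class II, 1.75 for Kupffer cells and 1.55 for T cell receptor signalling. It did so by 1.099 for the Cd2 family, 0.91 for cytotoxic effectors, 0.90 for NK receptors and 0.71 for T cell subsets. Among all 24 arrays it ranked 3 for the Kupffer list and 1 for the others just named. The MHC class II list averaged 11.84 there, against 9.72 to 10.23 on the other 5 labelled female controls, and the Kupffer list averaged 11.89 against 9.64 to 10.43. The B cell list at 7.25 lay within the 6.59 to 7.65 of the other 5, and so did the neutrophil list at 8.23 (7.68 to 8.43) and the endothelial list at 9.70 (9.53 to 10.05).

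Co-variation was measured on deviations from the 4 group means, so that differences between groups do not enter. Over all 24 arrays the 36 pairs of the 9 tested members had a median Pearson r of 0.833, from 0.608 to 0.984. After Benjamini-Hochberg adjustment over the 36 pairs, the permutation p of Pearson's r passed for 34 and that of Spearman's rho for 29. Without labelled female control 4 the median r was 0.591, from -0.121 to 0.922, and 19 pairs passed by Pearson and 21 by Spearman. Without the 2 arrays farthest from the median it was 0.635. Within slides, with 2 arrays per group, the median r was 0.418 on slide 1, 0.99 on slide 2 and 0.849 on slide 3. Slide 2 carried labelled female control 4. Without that array, r on slide 2 ran from -0.916 for Cd3e with Cd3g to 0.993 for Cd2 with Klrd1.

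Nkg7 and Ccl5 were the pair that moved together most closely, with r = 0.984 and rho = 0.937 over 24 arrays and r = 0.922 and rho = 0.923 over 23 (permutation p = 1e-05 each, the smallest that 100000 permutations can give). Cd3d and Cd3g, the neighbours on chromosome 9, had r = 0.968 over 24 arrays and 0.903 over 23. Gzma and Klrd1 had r = 0.957 over 24 arrays and 0.857 over 23 (permutation p = 4e-05 over 23, adjusted 0.000288). No pair with Cd3e passed without labelled female control 4, where its r ran from -0.121 with Klrd1 to 0.44 with Cd3d.

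**Figure D4:**
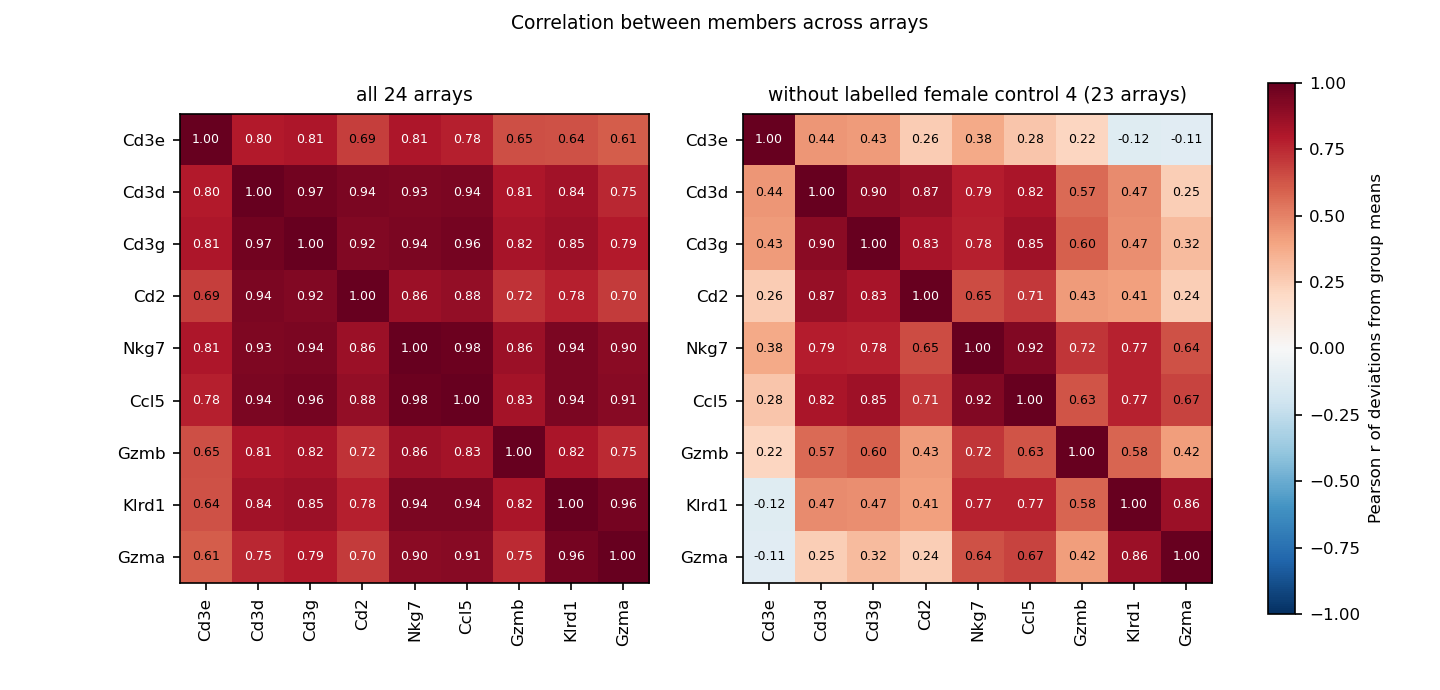
Pearson r between the 9 tested genes, from deviations of log2 intensity from the group means, over all 24 arrays (left) and over the 23 arrays without labelled female control 4 (right). On the right, Cd3d, Cd3g and Cd2 form a block with r of 0.828 to 0.903 and Gzma with Klrd1 reaches 0.857, while pairs between these sets reach at most 0.471.

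The members separated into sets once labelled female control 4 was left out, a split that was chosen after the values were seen and carries no test. Pairs within Cd3d, Cd3g and Cd2 had r of 0.828 to 0.903, and pairs between these 3 and Gzma or Klrd1 had r of 0.243 to 0.471. The labelled male pesticide group shows it in single arrays. Array 2 of that group was the highest of its 6 for Cd3d (8.73), Cd3g (7.58) and Cd2 (8.62), and the lowest of its 6 for Gzma (8.30) and Klrd1 (6.72). The B cell list was also highest of that group on array 2, at 8.65, and second on array 1, at 8.39, and its part in the split was not tested.

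The genes outside the list whose deviations were most like the members' mean were looked for among 14147 genes with a symbol that is neither a clone nor a predicted name. Over 24 arrays the 8 most alike included Itgb7 (r = 0.96), Ms4a4b (0.958), Cd5 (0.956), Lck (0.951), Padi2 (0.94), Cd8b1 (0.939) and Slamf8 (0.938). Over the 23 arrays without labelled female control 4 they included Ms4a4b (0.884), Skap1 (0.863), Thy1 (0.863), Kbtbd11 (0.858), Cd5 (0.857), Lck (0.835) and Stat4 (0.83). Ms4a4b, Cd5 and Lck were among the 8 in both. Lck is the kinase that starts signalling at the T cell receptor, and Cd5 tunes that signal. These arrays share their processing and liver tissue, and the values are descriptions without a test.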

How the data were processed

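The deposited scanner output gives, per the file headers, a fluorescence intensity for each spot with quality marks. It was extracted by Agilent Feature Extraction 10.10.1.1, per the submitters' processing notes. The authors' log2 value table was made by filtering and quantile normalizing the median signal, per the labels. Its 24 columns each correlated best with their own scanner file.

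Here the median signal was used without background subtraction. Control spots (3671 of 62976) were left out, outlier spots (0 to 9 per array) were set to missing, and spots were averaged to 56605 probes, log2 transformed and quantile normalized. Probes well above background on at least 4 of 6 arrays of a group were tested (32078 probes), in R 4.3.3 with limma 3.58.1 (lmFit, contrasts, eBayes, 1 mean per labelled group, two-sided) and Benjamini-Hochberg adjustment over all tested probes at 0.05. Each array had 29935 to 39032 probes well above background and 0 saturated spots. The number of arrays limits the precision. On data simulated for the male comparison over 32078 probes, 58% of changes of 0.5 and 92% of changes of 1 (log2) were recovered. These shares are over simulated probes and do not give the recovery for the members, whose male SE ran from 0.12 to 0.56 with all arrays. Nkg7 and Ccl5, with male differences of 1.04 and 1.49, were not called there.

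Correlations used 100000 permutations within groups. The members and gene lists were chosen with earlier results of these data known. From each list, up to 4 genes with the smallest p in the mean pesticide difference were eligible to be named, with the 8 genes most like the members' mean and the sex-linked genes; a few genes that this rule names are not reported here. Alternatives covered background correction, scaling, filters, blocks, weights, slides and leaving out each array. All 24 arrays were scanned on 1 day.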

Additional observations from a re-analysis of the deposited data

Results flagged for a closer look

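In a group of 6 arrays, an array was singled out when its gap to the nearest of the others, as a share of the group's whole range, exceeded Dixon's 95% critical value. This held in 11 of 56 groups of member probes, and in 7 of the 11 the array was labelled female control 4. Chance flags about 1 in 20 independent groups, but these probes co-vary across the same arrays and that array was already known to stand apart, so the count is a description and no test. For that array the gap was 0.683 and 0.69 of the range on the Cd3d probes A_51_P285206 and A_66_P109615, 0.698 on the Cd3e probe A_55_P2156229 and 0.642 on Cd3g. It was 0.74 on the Cd8a probe A_52_P443334, 0.64 on Nkg7 and 0.683 on Ccl5.

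Labelled male control 4 stood apart at the low end, with a gap of 0.689 on the Cd3e probe A_51_P455681 and 0.795 on the Cd2 probe A_55_P2077901. Labelled male control 2 stood apart at the high end on Gzma, with a gap of 0.69. Labelled male pesticide 2 stood apart at the high end on the Cd8a probe A_52_P443334, with a gap of 0.755, on a probe that was too dim to test.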

How the results depend on the processing

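The counts of members called were the least stable for the mean of both labelled sexes, at 5 of 9. That count was 3 with normexp background correction, 3 with no filter on dim probes, 3 of 6 with only probes above background on all arrays, 3 with eBayes trend and robust options, and 8, 0 and 1 on slides 1, 2 and 3 alone. Cd2 (adjusted p = 0.0452) and Ccl5 (0.0487) lie close to the threshold. The male count of 4 was 2 of 6 with only probes above background on all arrays, 8 when only the 2 groups compared were fitted, and 0 and 1 on slides 2 and 3 alone. The female count of 0 was 2 with array weights and 1 on slide 1 alone. Apart from leaving out labelled female control 4, no share of all genes called higher is given for the alternatives. Leaving out 1 array at a time gave 3 to 8 in males, 0 to 7 in females, 3 to 8 for the mean, and 0 to 0 for the difference between the labelled sexes and for both contrasts of labelled sex, where every alternative gave 0 calls. The highest values came without labelled female control 4 (8, 7 and 8). The median correlation of 0.833 was 0.591 without that array, 0.635 without the 2 arrays farthest from the median, and 0.418 and 0.99 on slides 1 and 2. Slide 2 is the one that carried labelled female control 4. With the replicate number as a block the mean count was 3, and the male and female counts were 4 and 0. Same-numbered arrays had a median correlation of 0.078 over 36 pairs, and 15 of 36 exceeded 0.1. No values for differently numbered arrays stand beside these, so they do not decide whether the numbers pair the samples. Over single members and alternatives, 933 values kept their side of the threshold, 32 passed only under the alternative and 70 no longer passed. No called value reversed. Values called in neither fit could change sign, such as Ccl5 in labelled females, at -0.81 on slide 2 alone against 0.53 with all arrays. The share of called probes that were higher in labelled males was 52.1%, but 45.7% after scaling the processed signal and 40.1% after scaling the median signal to the 75th percentile. Signal over background limits Cd8a, and to a lesser degree Cd3g, Gzmb and Klrd1.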
